A study of Zea mays with 217 samples.

Results

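GATA12, CCHH133 and C3H40 were the 3 transcription factors (TFs) of the GATA, C2H2 and C3H zinc-finger families among the 104 TFs whose binding was profiled in maize leaf. They were chosen by family name, with earlier results of these data known, and each was the single TF of its family in the table. All 217 libraries were ChIP-seq libraries from leaf mesophyll protoplasts of the inbred line B73, isolated from seedlings 1 to 2 weeks old. Each TF was expressed from a transfected plasmid as a fusion to the Avi tag, which a co-expressed biotin ligase labels with biotin, so it was present beside any copy made by the cell itself and at a level set by the plasmid. GATA12 (Zm00001d037605), CCHH133 (Zm00001d016793) and C3H40 (Zm00001d020954) had 2 libraries each, 6 of the 217, and the other TFs had 211. The deposited table gives, for each TF, its target genes with 1 p-value per gene, and it pools the libraries of a TF. It held 20067 target genes and 272627 pairs of a TF and a gene. Of these genes, 4731 were listed for at least 1 of the 3 TFs.

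Zinc-finger TFs hold their fold together with zinc ions bound by cysteines and histidines. GATA factors carry a type IV finger that reads GATA motifs, and in Arabidopsis several of them act in light and nitrogen responses and in chlorophyll synthesis. C2H2 factors carry fingers with a pair of cysteines and a pair of histidines and in plants often bear the QALGGH signature. C3H proteins carry CCCH fingers, and many of the family are known to bind RNA as well as, or in place of, DNA. DOF factors have a single C2C2 finger that reads an AAAG core. CONSTANS-like (COL) proteins, known from photoperiodic flowering, have zinc-binding B-boxes and a CCT domain. WRKY and Alfin-like proteins hold zinc in a WRKY domain and a PHD finger, and were included for that reason.

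The coding sequence of GATA12 had been amplified from B73 RNA, and those of CCHH133 and C3H40 came from full-length cDNA clones. The gene-specific parts of both GATA12 primers are shown because they mark which reading frame was tagged, with the start codon in capitals:
GATA12 forward: ATGatgatggattccgcgga
GATA12 reverse: gccatgtagcagcgtggatc

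The p-value of a target came from the Target Identification from Profiles (TIP) method, which weighs a TF's binding signal around each gene's start against the TF's own average profile. A small p thus ranks a gene within 1 TF, and p-values of different TFs are not on a shared scale. The table held only pairs with p below 0.05. Since replicates were pooled, no value below has a replicate error and none was tested. Values set against other TFs are given with a rank over the 104 TFs or with the median or range of the others, and the remaining counts are descriptions. Sequencing depth per library was not analysed here, and its part in the number of targets was not tested.

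All 3 TFs had short target lists. GATA12 had 1415 targets, or 7.05% of all target genes, which was the 7th shortest list of the 104. CCHH133 had 2080 (10.4%) and C3H40 had 2310 (11.5%). The median of the other TFs was 2872, with quartiles of 2479 and 3056, so all 3 lists lay below the lower quartile.

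The 3 TFs differed in how many targets were private, meaning listed by no other TF. GATA12 had 189 private targets, 13.4% of its list, CCHH133 had 78 (3.75%) and C3H40 had 28 (1.21%). The other TFs had a median of 22, with quartiles of 11 and 42, and a median share of 1.01%. The share of GATA12 was the 2nd highest of the 104, after the Golden2-like factor GLK53 at 22.9%. That of CCHH133 was the 12th highest and that of C3H40 the 39th, within the quartiles of the other TFs (0.424% to 1.73%).

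**Figure D1:**
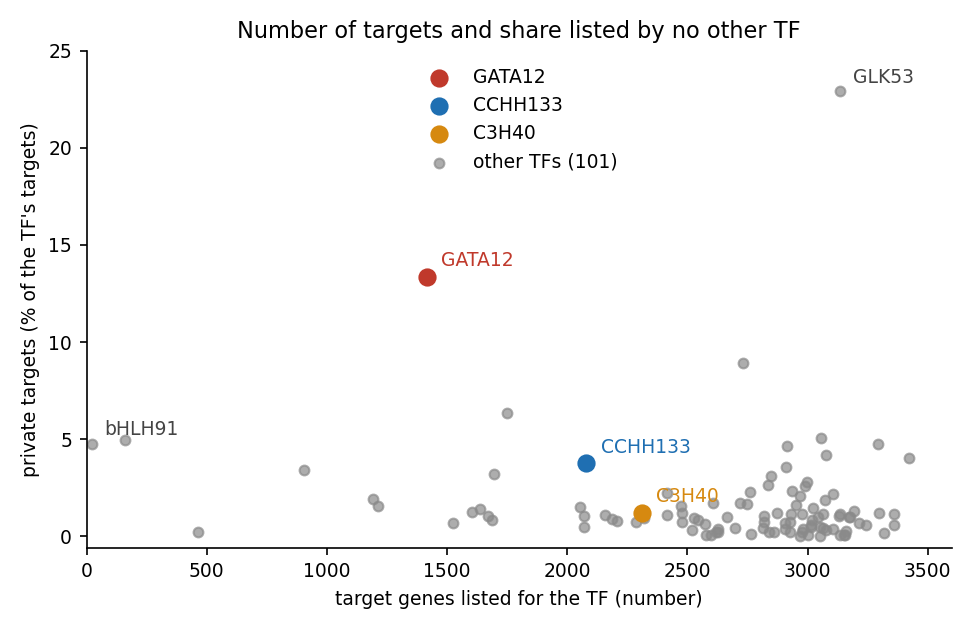
Number of target genes (x axis) against the share of them that no other TF listed (y axis, %), with 1 point per TF, for GATA12, CCHH133, C3H40 and the other TFs. GATA12 lies at 1415 targets and 13.4%, below only GLK53 in share, while C3H40 at 1.21% lies among the other TFs.

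Other TFs with lists of similar length had lower private shares than GATA12 and CCHH133. The 6 TFs whose lists were nearest in length to that of GATA12 (ZIM1, DOF21, MYB62, GLK1, MYBR26 and LG2) had private shares of 0.655% to 1.93%. Around CCHH133, the 6 nearest TFs had 0.484% to 1.51%. Around C3H40 the range was 0.744% to 2.24%, which held its own value.

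The number of TFs that list a gene, its in-degree, showed the same order. Targets of GATA12 had a median in-degree of 16 (quartiles 4 and 46), those of CCHH133 one of 25 (9 and 51) and those of C3H40 one of 43 (22 and 66). Medians of the other TFs lay at 34 to 42 between their quartiles. GATA12 tied with DOF17, DOF30 and EREB97 after GLK53 (6) and DOF22 (15), CCHH133 was the 10th lowest, and C3H40 was the 18th highest. Genes listed by at most 5 TFs made up 29.8% of the targets of GATA12, the 2nd highest share of all TFs, and 16.9% of those of CCHH133. Over all target genes, 22.4% were private to some TF and 52% were listed by at most 5.

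At the other end stood 216 hub genes, those listed by at least 84 of the TFs (1.08% of all target genes). C3H40 listed 90.3% of them, CCHH133 55.1% and GATA12 34.7%. The other TFs listed a median of 203, with quartiles of 178 and 211, and C3H40 listed 195. The hub genes were 8.44% of the list of C3H40, 5.72% of that of CCHH133 and 5.30% of that of GATA12, against a median of 7.09% in the other TFs.

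**Figure D2:**
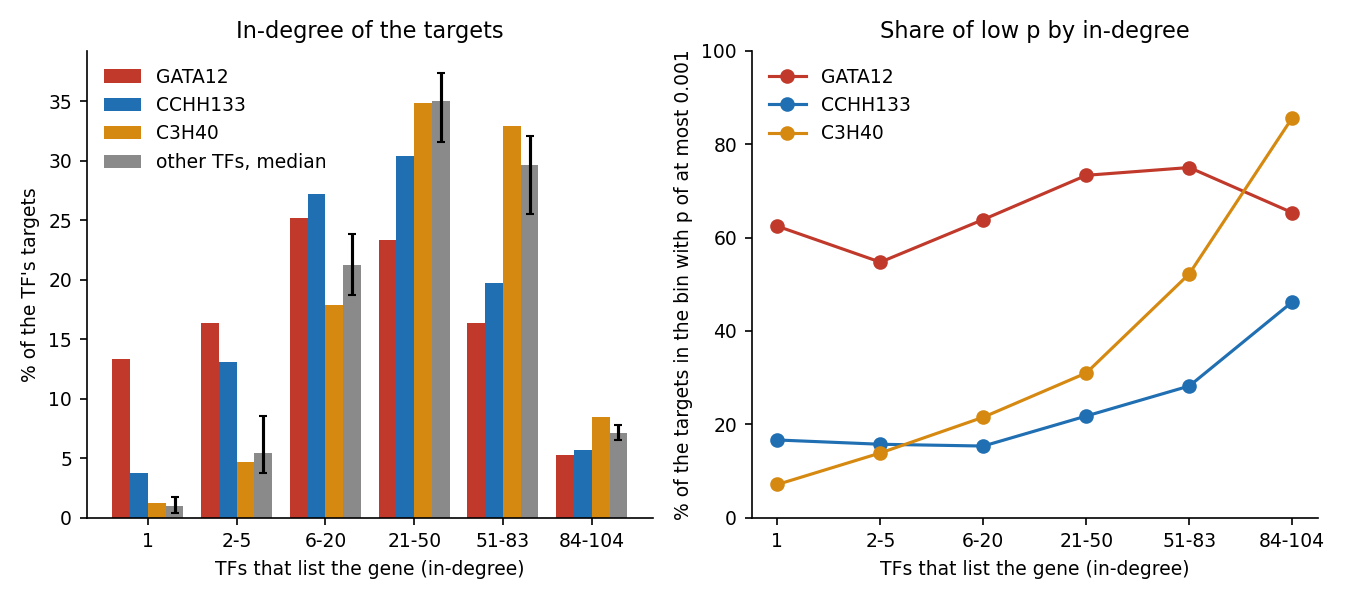
Left, share of each TF's targets (%) by the number of TFs that list the gene, for GATA12, CCHH133 and C3H40 beside the median of the other TFs with bars for their quartiles; right, share (%) of the targets in each class with p of at most 0.001. GATA12 holds 13.4% of its targets in the private class and keeps shares of low p between 54.7% and 75.0% in every class, while C3H40 has 7.14% in the private class and 85.6% among hub genes.

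Private targets of GATA12 were not its weak ones. Of the 189, 118 (62.4%) had p of at most 0.001, against 65.3% of its 75 hub targets, and the shares in the classes between ran from 54.7% to 75.0%. In 76 private targets p was at most 1e-05, more than in any other TF (highest other count 48). At 0.001 the trait was not particular to GATA12, as TCP23 had 32 of 54 private targets and GRAS23 59 of 111. The other TFs had a median of 1 private target at 0.001. Over all targets, 608 genes of GATA12 had p of at most 1e-05 (3.03% of all target genes), against 170 of CCHH133 (0.847%) and 467 of C3H40 (2.33%). CCHH133 had p of at most 0.001 in 16.7% of its 78 private targets, against 46.2% of its 119 hub targets. In C3H40 the shares were 7.14% of 28 private targets and 85.6% of 195 hub targets, and rose with in-degree in the classes between. Hub genes were 167 of its 920 targets at 0.001. Beyond the private class these shares were not computed for the other TFs, so whether such a rise is common was not tested.

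The p-values of GATA12 were low throughout its list. Of its 1415 targets, 938 (66.3%) had p of at most 0.001, which made up 4.67% of all target genes, and its median p of 4.69e-05 was the 2nd lowest of the 104. In C3H40, 920 targets (39.8% of its list and 4.58% of all target genes) passed, with a median p of 0.00340. CCHH133 had 452 (21.7%, or 2.25% of all target genes) and a median p of 0.0119. The other TFs had a median share of 27.9%, with quartiles of 16.6% and 36.8%. GATA12 and C3H40 therefore lay above the upper quartile and CCHH133 between the quartiles.

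**Figure D3:**
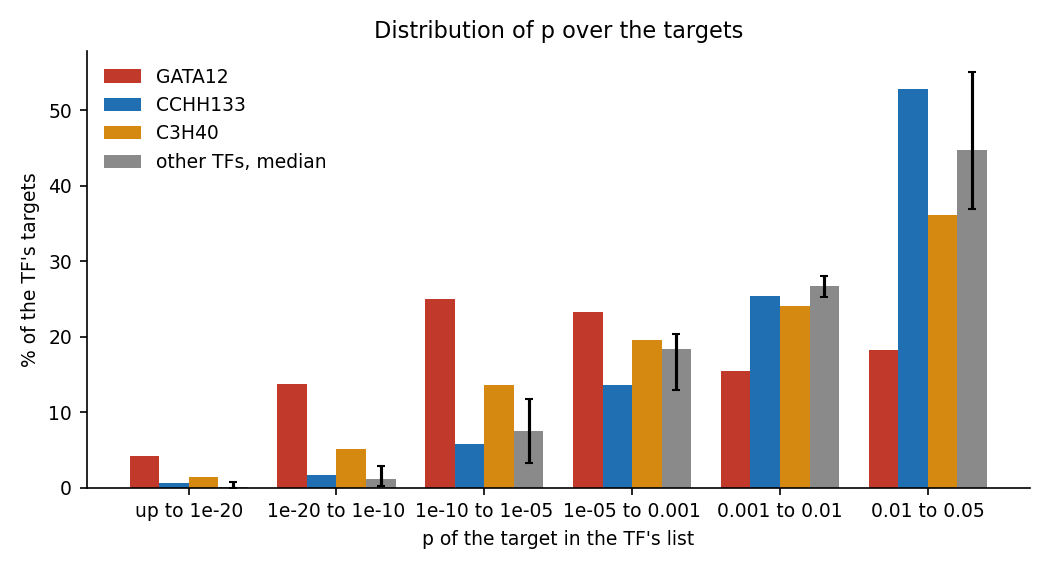
Share of each TF's targets (%) by p class, from the lowest p on the left to the highest on the right, for GATA12, CCHH133, C3H40 and the median of the other TFs with bars for their quartiles. GATA12 had 4.24% of its targets at p of at most 1e-20 and 18.3% above 0.01, while CCHH133 had 0.673% and 52.8%.

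CCHH133 had a few extreme values in a list whose share of low p lay between the quartiles of the other TFs. Its target of lowest p, Zm00001d036534, was written as 0 in the table, and the lowest p of any other TF on that gene was 3.87e-53 (the MYB-related factor MYBR87). Zm00001d021951 followed at 1.36e-251, against 1.20e-21 for GLK2. These genes were listed by 90 and 95 TFs, and CCHH133 had the lowest p of them all on both. The target identifiers are not paired with gene names here.

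The targets of lowest p of GATA12 included rarely listed genes, but were not more rarely listed than its whole list. Its 50 targets of lowest p had a median in-degree of 22, against 16 over the list, and 6 of them were private. Zm00001d015515 had p of 1.75e-186 for GATA12 and was listed by 95 TFs, of which MYBR64, with p written as 0, was lower. Zm00001d004525 had p of 1.12e-101 for GATA12, with 23 TFs and a next p of 3.59e-07 (LHY1, the maize homologue of the circadian clock gene LHY). A private gene, Zm00001d044717, ranked 3rd of the 1415 at p of 2.47e-81, and the next private one, Zm00001d046389, ranked 34th at 5.07e-28.

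For C3H40 the lowest values fell on genes that other TFs also bound at low p. Zm00001d038049 had p of 2.84e-68 for C3H40 and was listed by 92 TFs, with bHLH91 at 0. Zm00001d032873 had p of 1.32e-65 and 64 TFs, with DOF21 next at 5.74e-26. Its best private target, Zm00001d032781, ranked 652nd of 2310 with p of 1.13e-04. The best private target of CCHH133, Zm00001d050730, ranked 40th of 2080 with p of 6.56e-12, and Zm00001d036590 followed at 57th with 7.02e-10.

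Among targets listed by at least 1 further TF, GATA12 had the lowest p of all TFs on 485 of 1226 genes (39.6%), a share below only that of bHLH91, a TF with 20 such targets. CCHH133 had the lowest p on 222 of 2002 (11.1%) and C3H40 on 176 of 2282 (7.71%). The median share of the other TFs was 4.64%, with quartiles of 2.18% and 8.62%. On genes listed by at least 50 TFs, GATA12 had the lowest p on only 36 of 315, the 12th highest count of all TFs. There CCHH133 had it on 14 of 539 (34th) and C3H40 on 37 of 980 (11th). The lead of GATA12 thus lay mostly on genes listed by fewer TFs. How far low in-degree alone raised its share was not tested. Since p is scaled to each TF's own profile, these counts compare values that are not on a shared scale. They do not measure occupancy.

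Over all target genes, the lists of the 3 zinc-finger TFs overlapped less than those of most TF pairs. GATA12 and CCHH133 shared 279 genes (19.7% of the list of GATA12 and 13.4% of that of CCHH133, 1.39% of all target genes). GATA12 and C3H40 shared 364 (25.7% and 15.8%, 1.81% of all target genes), and CCHH133 and C3H40 shared 556 (26.7% and 24.1%, 2.77%). The Jaccard index, which is the number of shared targets over the number in either list, was 0.0868, 0.108 and 0.145 for these pairs in this order. Over all 5356 pairs of TFs its median was 0.235 with quartiles of 0.166 and 0.294, so all 3 pairs lay below the lower quartile. Their ranks from the highest were 5031, 4823 and 4375. This place was lost among genes listed by at most 20 TFs, where 45.7%, 39% and 28.8% of pairs were less similar. At p of at most 1e-05 it was lost for both pairs with C3H40, at 38.8% with GATA12 and 38.9% with CCHH133. The place over pairs also depends on how low the indices of a TF are in general. GATA12 had a median of only 0.101 over the other 103 TFs, with C3H40 ranked 35th and CCHH133 80th. For CCHH133, C3H40 was 63rd and GATA12 94th. For C3H40, CCHH133 was 92nd and GATA12 100th.

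Genes that a pair shared were mostly genes of high in-degree, with medians of 51, 60 and 64 in the same order. GATA12 and CCHH133 had 1 gene that no further TF listed, CCHH133 and C3H40 had 1, and GATA12 and C3H40 had 0. On the shared genes the rank correlation of the p-values was −0.07 for GATA12 and CCHH133 over 279 genes, 0.06 for GATA12 and C3H40 over 364, and 0.06 for CCHH133 and C3H40 over 556. A low p of one TF thus went with neither a low nor a high p of the other. These correlations run across genes, which are not independent replicates.

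All 3 TFs listed 125 genes, 0.623% of all target genes. Their median in-degree was 73, with a range of 13 to 99, and 41 of them (32.8%) were hub genes. In 19 of the 125 all 3 p-values were at most 0.001. Only 3 of the 125 were listed by at most 20 TFs. The one with the fewest, Zm00001d028722, had 13 TFs and p of 0.0351 for GATA12, 0.0232 for CCHH133 and 0.0247 for C3H40. Zm00001d014329 had 16 TFs, DOF17, DOF22 and DOF30 among them, and p of 1.38e-04 for GATA12, 0.0467 for CCHH133 and 0.0260 for C3H40.

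The genes that only 1 of the 3 listed kept the order of the full lists. GATA12 alone of the 3 listed 897 genes with a median in-degree of 7, CCHH133 alone listed 1370 with a median of 15, and C3H40 alone listed 1515 with a median of 34. Hub genes were 1 of the 897, 12 of the 1370 and 65 of the 1515.

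**Figure D4:**
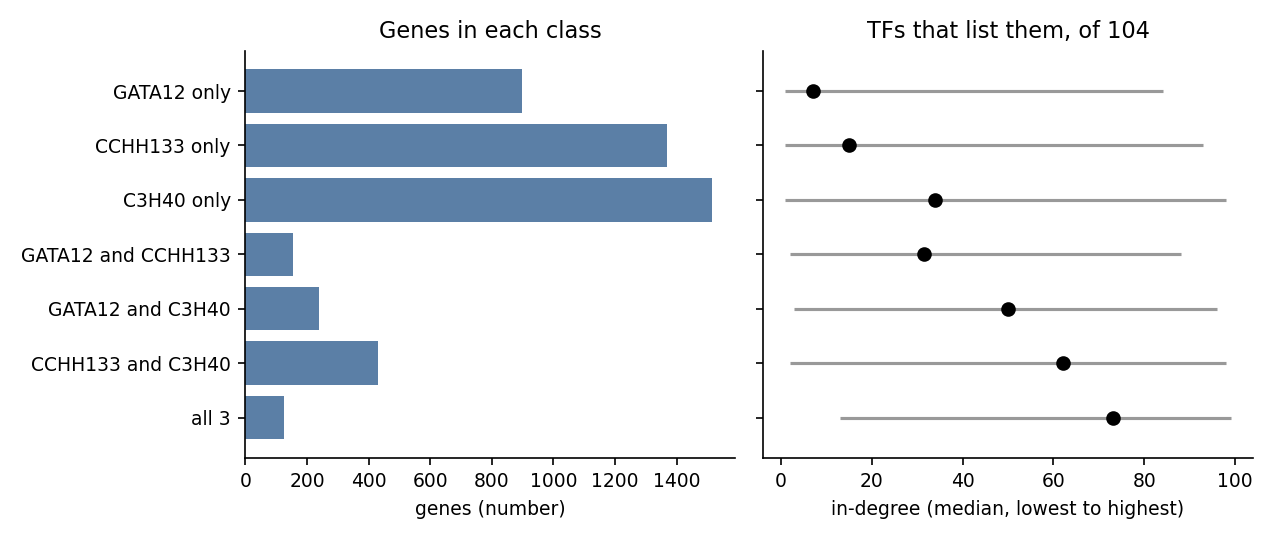
Number of genes (left, bars) and number of TFs that list them (right, median as a point, lowest to highest as a line) for the 7 classes made by the 3 target lists, where "only" means alone among the 3. The 897 genes of GATA12 only have a median of 7 TFs and the 125 genes of all 3 a median of 73.

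The TF most like GATA12 was MYB81, with a Jaccard index of 0.138 and 535 shared genes (37.8% of the list of GATA12 and 17.8% of that of MYB81). The clock-related factor ELF3 followed at 0.126, then the jasmonate-pathway ZIM-domain protein ZIM28 at 0.124, and MYBR17 and MYBST1 at 0.121 each. These values are close together, and the 103 TFs had a median of 0.101. The highest index of GATA12 was itself the 3rd lowest such maximum among the 104 TFs. GLK53, the TF with the higher private share, had an index of 0.0572 with GATA12 (100th of 103) over all genes, but one of 0.0295 (38th) among genes listed by at most 20 TFs. On those genes the GLK family had the highest median of the 15 families for GATA12 (0.0412) and for CCHH133 (0.0755). Targets of GLK53 had a median in-degree of 6, so most of them were among those genes.

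The nearest TFs of CCHH133 were R2R3-type MYB factors. MYB88 had an index of 0.251 with 983 shared genes (47.3% of the list of CCHH133 and 34.9% of that of MYB88), and MYB31 had 0.251 with 1030 shared genes. GLK52 followed at 0.237, MYB6 at 0.235 and bHLH163 at 0.231, against a median of 0.154 over the 103 TFs. The 9 MYB TFs had the highest median of the 15 families with at least 2 TFs, at 0.228. MYB88 and MYB31 themselves had median indices of 0.251 and 0.305 over the other TFs.

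C3H40 was closest to LHY1, with an index of 0.368 and 1298 shared genes (56.2% of the list of C3H40 and 51.5% of that of LHY1). ELF3 followed at 0.362 with 1403 shared genes (60.7% and 47.3%), then ZIM28 at 0.358, MYBR87 at 0.347 and ZIM18 at 0.339. LHY and ELF3 are named for components of the plant circadian clock. Several of these TFs had high indices with most TFs. The median index over the other TFs was 0.325 for ZIM18, the highest of the 104, 0.315 for ELF3 (4th) and 0.309 for ZIM28 (6th). It was 0.289 for LHY1 (21st) and 0.265 for MYBR87 (47th). ELF3 and ZIM28 were also the 2nd and 3rd nearest of GATA12. The 6 ZIM TFs had the highest family median, at 0.318, and the 2 Alfin-like TFs the 2nd highest, at 0.309, against 0.254 over all 103 TFs. The farthest TF of all 3 was bHLH91, which had 21 targets in all.

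DOF TFs were not close to these zinc-finger TFs over all target genes. With GATA12 the index was 0.105 for DOF21 (40th of 103), 0.0699 for DOF22, 0.0647 for DOF30 and 0.0642 for DOF17 (91st to 97th), and their median of 0.0673 was the lowest of the 15 families. With C3H40 it was 0.247 for DOF21 (59th) and 0.138 to 0.145 for DOF17, DOF22 and DOF30 (93rd to 97th), again the lowest family median, at 0.144. CCHH133 had 0.134 to 0.156 with the 4 DOF TFs, with a median of 0.149 near that of all TFs, and the family ranked 7th.

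Restricting the comparison to genes listed by at most 20 TFs changed the place of the DOF TFs. CCHH133 had 917 such targets, and its index with DOF30 was 0.0729 (13th of 103), with DOF22 0.0661 (17th), with DOF17 0.0619 (21st) and with DOF21 0.0276 (68th). The family median of 0.0640 was the 3rd of 15 after the GLK and MYB families, against a median over all TFs of 0.0340. For GATA12, with 778 such targets, the DOF median of 0.0302 ranked 5th against 0.0271 over all TFs. For C3H40, with 549, it ranked 10th at 0.0344 against 0.0364. The remaining 2 TFs of the 3 also moved up for GATA12 under this restriction, CCHH133 to 11th at 0.0373 and C3H40 to 21st at 0.0343, from 80th and 35th over all genes. The targets of DOF17, DOF22 and DOF30 had median in-degrees of 16, 15 and 16, where the median of TFs outside the 3 was 39. The restriction thus kept most targets of these DOF TFs. How far this alone moved their place was not tested.

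With GATA12 all 6 COL TFs were in the lower part of the order. The index ran from 0.0671 for COL8 (94th) to 0.100 for COL7 (54th), with a median of 0.0892 that ranked 12th of 15 families. With CCHH133 it was 0.205 for COL7 (10th) and 0.0985 to 0.154 for COL2, COL3, COL8, COL13 and COL18, with COL8 the lowest, and the family ranked 8th. C3H40 had 0.299 with COL13 (26th) down to 0.191 with COL8 (82nd), and the family median of 0.261 ranked 7th. Among genes listed by at most 20 TFs the COL medians ranked 13th for GATA12 and 8th for both CCHH133 and C3H40. The 5 WRKY TFs ranked 4th with GATA12 (0.107), 3rd with CCHH133 (0.187) and 6th with C3H40 (0.274) over all genes, and 6th, 5th and 11th in this order among genes listed by at most 20 TFs.

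**Figure D5:**
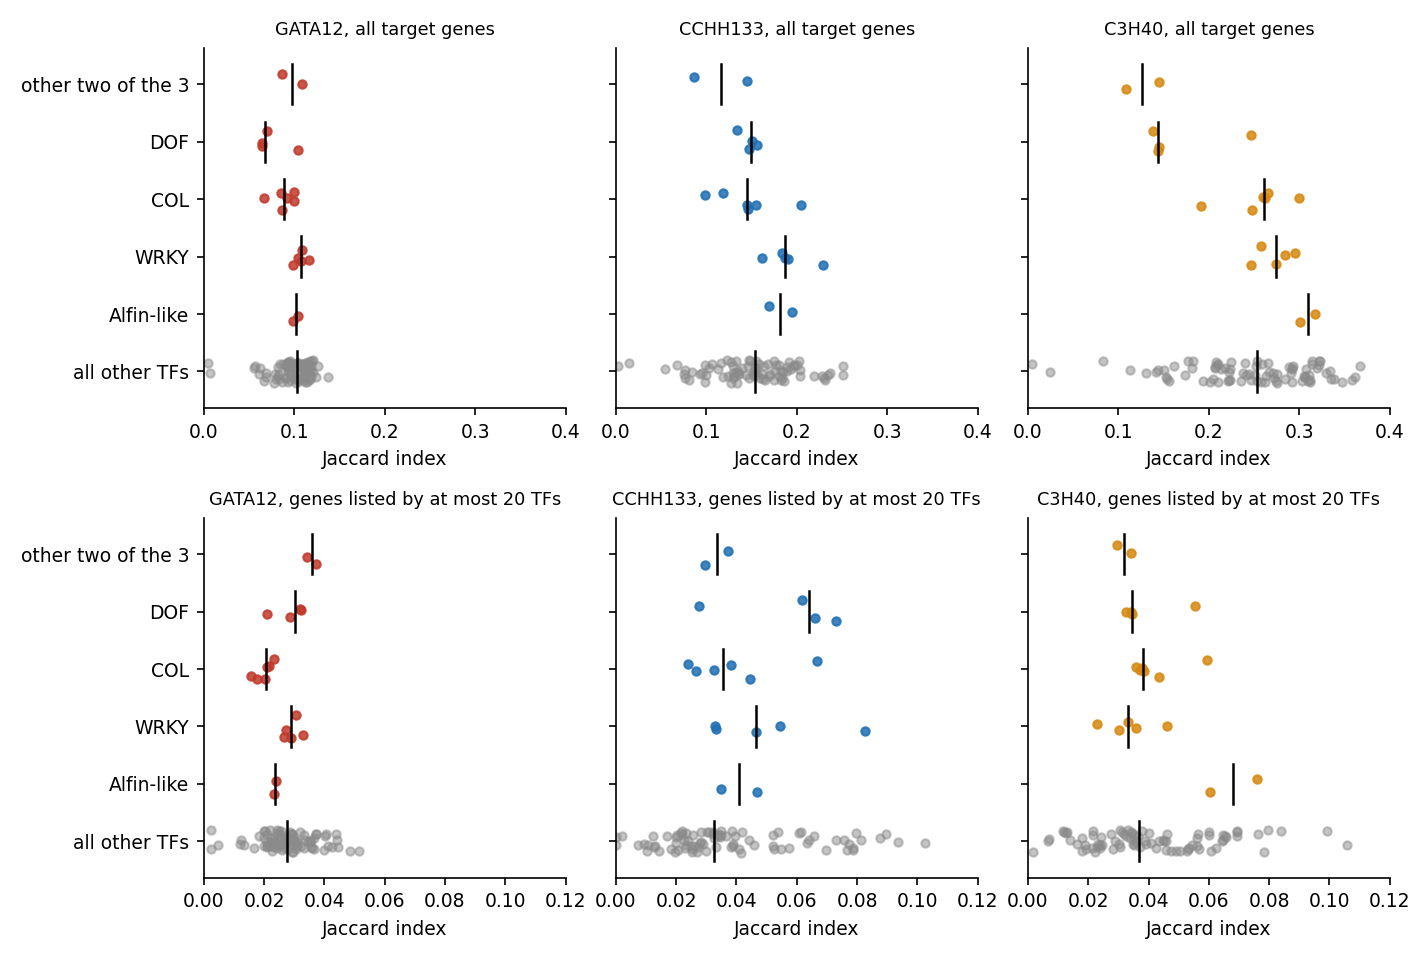
Jaccard index (x axis) of GATA12, CCHH133 and C3H40 with each of the other 103 TFs, over all target genes (top) and over genes listed by at most 20 TFs (bottom); each point is a TF, vertical lines are medians, and points are spread vertically for legibility. DOF17, DOF22 and DOF30 lie at the low end with GATA12 (0.0642 to 0.0699) and with C3H40 over all genes, and at 0.0619 to 0.0729 with CCHH133 over rarely listed genes, above its median of 0.0340.

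Among the 50 targets of lowest p of C3H40, 9 were also among the 50 of DOF21 and 9 among those of ZIM18, the highest counts over 102 TFs, and COL3 had 8. The median TF had 3, and DOF17, DOF22 and DOF30 had 1 each. CCHH133 shared 8 of its 50 with each of MYB88, ZIM27 and bZIP9, against a median of 2. GATA12 shared 4 of its 50 with LHY1, the highest count, and 1 or 0 with each DOF and COL TF. None of the 50 was common to GATA12 and CCHH133 or to GATA12 and C3H40, and CCHH133 and C3H40 had 2 in common. The leading TFs depended on where the list was ended. Among the 100 targets of lowest p, C3H40 had 27 in common with LHY1, 24 each with MYBR64 and ZIM18, and 19 with DOF21 (6th). CCHH133 had 18 with MYB81, and GATA12 had 6 each with HB34, HB66, MYB81, MYBR87, SIG6 and WRKY53.

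Genes with exactly 2 TFs were spread over many partners. GATA12 had 77 such genes spread over 40 partners, CCHH133 71 over 39 and C3H40 21 over 17. GLK53 was the partner in 11 of the 77 of GATA12 (14.3%), the highest count. It listed 14.2% of all 2360 genes of that in-degree. That share counts both TFs of a gene, while a gene of GATA12 has a single place left for a partner. These shares are therefore unlike, and no expected value was computed. Of the genes with exactly 3 TFs, GATA12 had 73 and CCHH133 71, and 7 were listed by both (9.59% of those of GATA12 and 9.86% of those of CCHH133). CCHH133 listed 4.47% and GATA12 4.60% of all 1587 genes of that in-degree, shares that likewise count every TF of a gene.

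Of the 104 profiled TF genes, GATA12 listed 9 (8.65%), CCHH133 16 (15.4%) and C3H40 30 (28.8%). Relative to the share of all target genes that each TF listed, this was a ratio of 1.23 for GATA12 (the 4th lowest of the 104), 1.48 for CCHH133 and 2.51 for C3H40, against a median of 2.15 in the other TFs. The ratio of C3H40 was the 25th highest.

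GATA12 had p of at most 0.001 on 7 TF genes. They were GLK9 (5.59e-33, 18th of its 1415 targets), MYBR32 (3.48e-18), WRKY94 (6.25e-08), the ERF-type EREB198 (2.39e-07), bHLH136 (2.42e-06), MYB62 (6.96e-05) and GLK53 (1.29e-04). The MYB62 and GLK53 genes were each listed by only 1 further TF. CCHH133 had p of at most 0.001 on 2, MYB81 (4.08e-04) and the homeobox factor HB33 (8.12e-04), both listed by more than 60 TFs (63 and 68).

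C3H40 had p of at most 0.001 on 18 TF genes. The lowest were bHLH136 (3.65e-16), MYB4 (6.86e-15), EREB109 (9.00e-14), EREB97 (9.86e-12), EREB198 (1.37e-10), HB66 (5.52e-08), MYBR40 (2.87e-07), WRKY95 (4.22e-06), DOF21 (2.06e-05) and EREB147 (2.53e-05). By family it listed 8 of 14 EREB, 4 of 7 HB, 3 of 5 WRKY and 2 of 3 NAC genes, against 28.8% of all 104 TF genes. It also listed 4 of 11 bHLH, 2 of 6 ZIM, 2 of 9 MYB and 1 of 10 MYBR genes. The Alfin-like (1 of 2), GRAS (1 of 2), DOF (1 of 4) and COL (1 of 6) families had 1 gene each, and no GLK or bZIP gene was listed. Of its 30 TF genes, 22 were listed by at least 50 TFs. Among the profiled DOF and COL TFs, the genes of DOF21 and COL3 (p of 0.0456, 2 TFs) were on the list of C3H40, and none was on those of GATA12 and CCHH133. EREB198 was the single TF gene listed by all 3.

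The genes of the 3 TFs were listed by 3 to 5 TFs each. The median in-degree of all target genes was 5, and for the genes of the other TFs the median was 18 with quartiles of 3 and 56. GATA12 was a target of 4 TFs: TCP23 (9.56e-07), EREB102 (0.00285), COL2 (0.00787) and MYBR87 (0.0417). CCHH133 was a target of TCP23 (5.91e-04), COL8 (0.00559) and HB66 (0.0354). C3H40 was a target of GLK53 (7.01e-04), ELF3 (0.00319), LHY1 (0.00845), MYBR41 (0.0160) and ALF7 (0.0272). CCHH133 listed HB66 in return (0.00905) and C3H40 listed ALF7 (0.0343). GATA12 listed none of the TFs that listed it. No TF of the 3 listed another of the 3, and no TF listed its own gene, whose locus the authors had removed from its peaks.

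Among 206 hub genes that the study annotated, 40 were listed by all 3 TFs and 3 by none. C3H40 listed 186 (90.3%), CCHH133 115 (55.8%) and GATA12 73 (35.4%). The shares of GATA12 and CCHH133 were the 4th and 9th lowest of the 104 TFs, and that of C3H40 tied for the 43rd lowest. Of the 44 annotated with a TF family, C3H40 listed 41, CCHH133 23 and GATA12 15. All 12 WRKY hub genes were on the list of C3H40, 8 on that of CCHH133 and 5 on that of GATA12. Of the 12 ERF hub genes, C3H40 listed 11, CCHH133 5 and GATA12 4. Most TFs list most hub genes, and the other TFs were not counted by family, so no preference is read from these counts.

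Of 8 genes of the C4 photosynthetic pathway, GATA12 listed 0, CCHH133 listed 3 and C3H40 listed 2, beside shares of all target genes of 7.05%, 10.4% and 11.5% in the same order. Counts this small set none of the 3 apart. Those of CCHH133 were CA1 (0.00161) and CA2 (0.0257), which encode carbonic anhydrases, and PPDK (2.29e-04), which encodes the enzyme that regenerates phosphoenolpyruvate. C3H40 listed CA1 (6.67e-04) and CA2 (0.00168). CA1 was listed by 96 TFs, CA2 by 50 and PPDK by 34. PEPC, NADP-MDH, NADP-ME, RbCS1 and RbCS2 were on none of the 3 lists, and in all had 11, 6, 0, 4 and 4 TFs. The Lhca gene, for a photosystem I antenna protein, was also on none.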

How the data were processed

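ChIP-seq libraries of 104 Avi-tagged TFs in B73 leaf protoplasts were analysed from the deposited table of TF and target gene pairs. Per the paper's methods, the authors aligned reads to B73 RefGen_v4 with Bowtie 2 (version 2.2.5), filtered them with SAMtools (version 1.3), called peaks with SPP against input, kept those at an irreproducible discovery rate of 1%, removed blacklisted regions and the locus of each TF's own gene, and scored genes with TIP at a false discovery rate of 5%. No version is stated for TIP. The values are p-values per TF and gene, deposited after pooling the 2 or more libraries of a TF. Their spread between replicates is therefore unknown.

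Lists, in-degrees and Jaccard indices were computed in Python 3.11.15 with pandas 2.3.3 and numpy 2.4.6. TF names, families, primers and the C4 and hub gene lists came from the study's supplementary lists. The factor listed as PCO135758 was called ELF3, and COL18 was counted with the COL TFs. The members and lists were chosen with earlier results of these data known. The 50 targets of lowest p and the counts of lowest p were added after the data were seen. Named genes were the nearest 5 and the farthest TF of each, all DOF and COL TFs, TFs listing or listed by the 3 (at most 10 with p of at most 0.001), the C4 and Lhca genes, and for unnamed identifiers the 2 targets of lowest p, 2 private targets and 2 shared by all 3. Other TFs are named as nearest or highest in a count given. Alternatives were stricter p thresholds (0.001 and 1e-05), the 1000 targets of lowest p, an overlap coefficient, a Jaccard index weighted by −log10 p up to 10, genes with at most 20 TFs, and leaving out TFs with fewer than 500 targets. The code for private counts and overlap indices was checked on a small simulated network with known answers, which is not a test of the overlaps. Gene coordinates, proteins and promoters were not used here.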

Additional observations from a re-analysis of the deposited data

How the results depend on the processing

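The order of the 3 TFs in private targets held under the 4 alternatives run for it (both p thresholds, the 1000 of lowest p and without TFs of fewer than 500 targets). The number of targets at p of at most 0.001 was 938 for GATA12, 452 for CCHH133 and 920 for C3H40, and at 1e-05 it was 608, 170 and 467. Private targets of GATA12, counted among edges that passed, were 284 at 0.001, and those of CCHH133 were 33 at 1e-05. Targets of all 3 numbered 19 at 0.001, 5 at 1e-05, 44 among the 1000 of lowest p and 3 among genes with at most 20 TFs. The percent of other TFs with a lower median in-degree than C3H40 was 50.5 at 0.001 and 42.7 at 1e-05, against 79.6.

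The percent of TF pairs less similar than GATA12 and CCHH133 (6.07) was 10.8 at 0.001, 15.5 at 1e-05, 3.84 among the 1000 of lowest p, 2.43 by the overlap coefficient, 5.19 by the weighted index and 45.7 among genes with at most 20 TFs. For GATA12 and C3H40 (9.95) it was 24.2, 38.8, 8.75 and 6.68 under the first 4 of these and 39 among genes with at most 20 TFs. For CCHH133 and C3H40 (18.3) it was 22, 38.9, 19.5 and 7.9, and 28.8 among those genes. The place of all 3 pairs below the lower quartile was thus lost among genes with at most 20 TFs, and that of both pairs with C3H40 at 1e-05.

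The percent of TFs outside the family that were less similar than the median COL TF to GATA12 (23.7) was 49.5 at 0.001, 54.6 at 1e-05, 35.5 among the 1000 of lowest p, 49.5 by the overlap coefficient, 37.1 by the weighted index and 12.4 among genes with at most 20 TFs. For COL and CCHH133 (39.2) it was 60.8 at 0.001, 50.5 by the overlap coefficient and 55.7 among genes with at most 20 TFs. For the median DOF TF and CCHH133 (45.5) it was 27.3 at 0.001, 30.3 at 1e-05, 28.4 among the 1000 of lowest p and 83.8 among genes with at most 20 TFs. The DOF value of GATA12 (8.08) was 66.7 among genes with at most 20 TFs, and that of C3H40 (8.08) was 3.16 among the 1000 of lowest p and 41.4 among genes with at most 20 TFs. For WRKY and Alfin-like TFs 13 of 36 values moved. That of WRKY and C3H40 (63.3) was 34.7 among genes with at most 20 TFs, and that of Alfin-like and C3H40 (82.2) was 91.1. The statement that DOF TFs were far from GATA12 and C3H40 therefore depends on counting often listed genes.

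MYB81 was more similar to GATA12 than 95.1% of TFs at 0.001 and 80.4% at 1e-05, with MAB16 and bZIP38 nearest. MYB88 was nearer to CCHH133 than 96.1%, 92.2% and 95.9% at 0.001, at 1e-05 and among the 1000 of lowest p, with GLK52, MYB81 and MYB31 nearest. For MYB88 the values were 97.1% by the overlap coefficient and 99% by the weighted index, with MYB31 nearest under both. LHY1 was nearer to C3H40 than 98% at 0.001 and 99% among the 1000 of lowest p, with ELF3 nearest under both. Among genes with at most 20 TFs it was nearer than 99%, with MYBR87 nearest. By the overlap coefficient LHY1 was nearer than 93.1%, with MYBR64 nearest. The cause of these changes was not tested. No paired analysis was possible because the table pools the libraries of each TF, and for the same reason no library could be left out.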

Other observations

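Target genes with neighbouring identifier numbers were frequent in the lists of GATA12 and CCHH133. The next or previous number was also on the list for 53.8% of the targets of GATA12 and 54.0% of those of CCHH133, the 6th and 5th highest shares of the 104 TFs, and for 46.7% of those of C3H40 (30th). The other TFs had a median of 41.2%, with quartiles of 36.0% and 47.2%. Among targets with p of at most 1e-05 the shares were 52.0% of 608 for GATA12, 72.9% of 170 for CCHH133 and 65.7% of 467 for C3H40.

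Among the 20 profiled TFs of zinc-binding families (DOF, COL, WRKY, Alfin-like, GATA, C2H2 and C3H), 433 genes had at least 2 TFs and none from outside these families. GATA12 listed 19 of them (4.39%), CCHH133 21 (4.85%) and C3H40 5 (1.15%). Of all genes with 2 to 5 TFs, GATA12 listed 3.90%, CCHH133 4.59% and C3H40 1.82%. Those genes were open to every profiled TF and the 433 only to the 20, so the shares are unlike and no comparison is drawn.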
